A study of Mus musculus with 6 samples.

Results

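The 8 genes described here encode the classical subunits of activator protein 1 (AP-1): the Fos family (Fos, Fosb, Fosl1 and Fosl2), the Jun family (Jun, Junb and Jund) and the related factor Atf3. They were chosen by gene name, and all 8 were found among the 41128 features listed for each library. RNA sequencing had been performed on whole lenses of mouse embryos at E15.5, with 3 libraries per group. The conditional knockout group (cKO) carried Flox/Flox alleles of the β1-integrin gene Itgb1 together with the Cre transgene MLR10, on a strain background labelled as mixed, and each library was a pool of 30 lenses. The wild-type group (WT) was C57Bl/6, labelled by strain alone (C57Bl/6 <har> in the design), and had 75 lenses in each pool. The 3 WT libraries were also deposited with a series that came before this one. MLR10 is a transgene in which a modified αA-crystallin promoter drives Cre in lens epithelial and fiber cells, so vessels and macrophages attached to the lens are not its target. Floxed alleles, Cre, strain, pool size and series of origin all change together from WT to cKO, and their effects cannot be told apart.

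AP-1 proteins are basic leucine zipper (bZIP) factors that bind DNA as dimers. Jun proteins can pair with each other, whereas Fos proteins need a Jun partner, and Atf3 pairs with Jun proteins or with itself. Fos, Fosb, Junb and Atf3 are immediate early or stress-induced genes: serum response factor with its Elk cofactors switches on the Fos promoter, and MAP kinases activate the Elk proteins and the Jun proteins. Their messengers are short-lived, in part because proteins of the Zfp36 family bind AU-rich stretches and hasten decay. Jund is transcribed more steadily in most tissues. In the lens, bZIP relatives of the Maf family are known regulators of crystallin genes, and Fos and Jun respond to growth factors in cultured lens epithelial cells.

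The start regions of 3 members are shown because Fos and Junb had the largest log2 fold changes among the members expressed above 1 CPM (reads scaled to the same total for each library) in every library, and Jun was the most abundant member whose annotated start sites match. The RefSeq windows (GRCm38.p6) run from 250 bases before to 50 bases into the gene, 5′ to 3′ on the gene's strand, and capitals mark the motif matches found. Fos lies at chr12:85473640-85473939 on the plus strand, Jun at chr4:95052173-95052472 and Junb at chr8:84978699-84978998, both on the minus strand.
Fos: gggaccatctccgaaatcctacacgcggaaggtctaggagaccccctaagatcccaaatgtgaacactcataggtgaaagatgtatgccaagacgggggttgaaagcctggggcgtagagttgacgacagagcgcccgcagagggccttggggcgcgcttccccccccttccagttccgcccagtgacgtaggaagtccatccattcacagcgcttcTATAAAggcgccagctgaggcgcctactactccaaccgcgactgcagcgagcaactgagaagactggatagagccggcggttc
Jun: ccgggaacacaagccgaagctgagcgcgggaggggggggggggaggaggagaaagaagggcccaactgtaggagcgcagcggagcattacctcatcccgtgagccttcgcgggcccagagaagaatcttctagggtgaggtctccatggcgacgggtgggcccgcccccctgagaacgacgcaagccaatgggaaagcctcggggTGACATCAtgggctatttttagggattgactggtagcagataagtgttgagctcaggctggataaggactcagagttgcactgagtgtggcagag
Junb: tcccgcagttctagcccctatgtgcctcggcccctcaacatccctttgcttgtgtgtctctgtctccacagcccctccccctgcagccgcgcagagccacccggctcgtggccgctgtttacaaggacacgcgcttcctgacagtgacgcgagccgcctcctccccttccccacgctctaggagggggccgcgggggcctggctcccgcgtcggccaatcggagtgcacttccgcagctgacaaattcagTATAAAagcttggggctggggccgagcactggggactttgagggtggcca
In the Fos window a TATA sequence began 33 bases before the start site. In the Jun window the CRE-like octamer TGACATCA, a known element of Jun promoters, began 45 bases before the start site. In the Junb window TATAAA began at the RefSeq start, and the GENCODE M21 start lies 30 bases further downstream. Windows were at hand for 7 of the 8 members (all but Fosl1), and those of Fosb, Fosl2, Jund and Atf3 held no match. The motifs searched on both strands were the AP-1 site TGACTCA, the cyclic AMP response element TGACGTCA, TGACATCA, the CArG box bound by serum response factor, and TATAAA. None of them overlapped another in these windows. Over all 32851 windows of the same length, TATAAA occurred in 13.6%, TGACTCA in 5.20%, TGACATCA in 3.62%, TGACGTCA in 1.79% and the CArG box in 1.63%. The matches are descriptions of sequence. Only exact matches were counted, and sequence more than 250 bases before the start site, for Fos as for the others, was not searched. For Jund the RefSeq start used lies 1210 bases upstream of the GENCODE start, so its window does not cover the latter. The windows of Fosl2 and Atf3 do not cover their GENCODE starts either, which lie further upstream.

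The libraries held 20036554 to 28095318 reads in cKO and 10023049 to 11531139 in WT, so 1 read was worth 0.0356 to 0.0998 CPM. Itgb1 gave 236, 275 and 262 CPM in cKO replicates 1, 2 and 3 and at 402, 424 and 448 CPM in WT replicates 1, 2 and 3 (log2 fold change -0.72, adjusted p = 1.63e-05 by limma). All 10 lens markers were detected, with 0 higher and 4 lower in cKO and a summed level of 170684 to 191973 CPM in cKO and 182556 to 196207 CPM in WT. Of the 11941 genes tested, 2499 (20.9%) were called higher and 1904 (15.9%) lower in cKO at an adjusted p under 0.05. When GC content and length were corrected for, 1886 genes were called higher and 2297 lower. Across the tested genes the log2 fold change had a median of 0.03.

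Of the 7 AP-1 genes tested, 6 were called higher in cKO and 0 lower, and Fosl1 was not called. Fos, Junb and Atf3 rose most, with ratios of mean CPM of 4.95, 2.81 and 3.32, and Fosl2, Jun and Jund rose with ratios of 1.65, 1.40 and 1.34. The background shares were 20.9% of all tested genes for a higher call and 15.9% for a lower call. The groups did not overlap in the same 6 genes, with every cKO library above every WT library, as in 26.9% of all tested genes. Fosb stayed under the filter of 1 CPM in 3 libraries. Atf3 passed that filter through the cKO libraries alone, so its presence among tested genes depends on its higher level there. For the 7 tested members the median was 0.53.

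**Figure D1:**
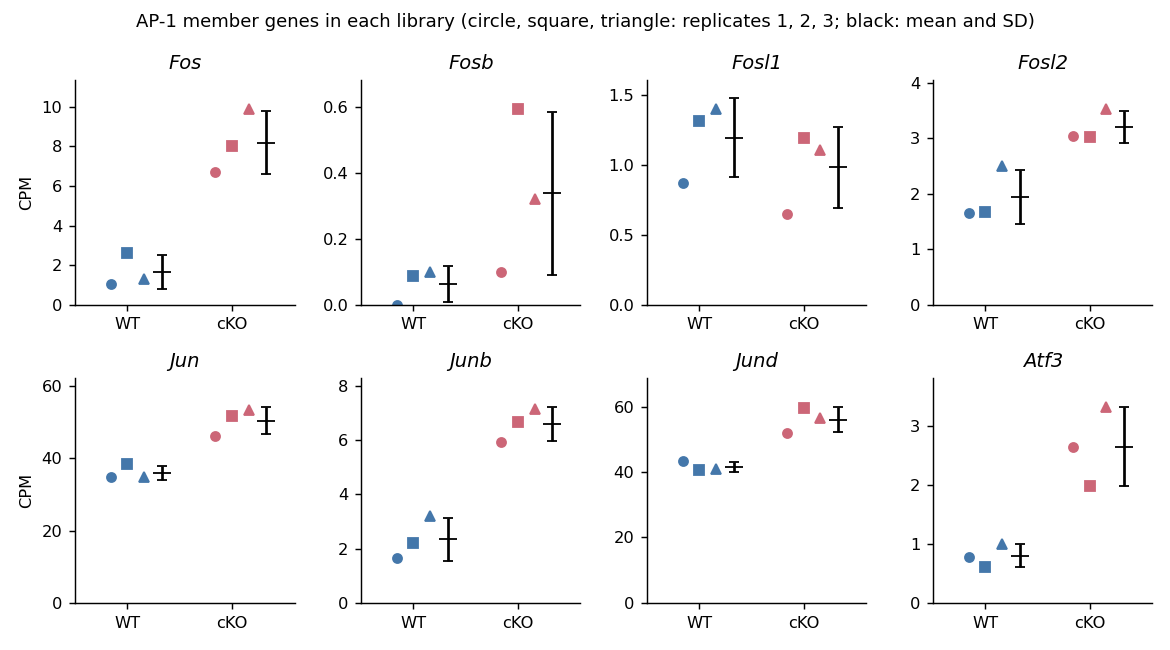
CPM of each AP-1 gene in the 3 WT (blue) and 3 cKO (red) libraries, with the mean and SD in black; each panel has its own linear axis from 0. Fos, Fosl2, Jun, Junb, Jund and Atf3 show no overlap between groups, Fosl1 overlaps, and Fosb stays under 1 CPM throughout.

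Fos, the founding member of its family and an early responder to growth factors and stress, had the largest log2 fold change of the 7 tested members. It was at 6.69, 8.01 and 9.89 CPM in cKO replicates 1, 2 and 3, from 134, 162 and 278 reads, and at 1.04, 2.63 and 1.30 CPM in WT, from 12, 30 and 13 reads. The lowest cKO library was 2.54 times the highest WT library, WT replicate 2. The exact Poisson interval of that WT library was 1.77 to 3.75 CPM and that of the lowest cKO library 5.60 to 7.92 CPM, both for counting error only. The log2 fold change of CPM + 1 was 1.82 (SE 0.20, 95% interval 1.38 to 2.26, adjusted p = 3.18e-05 by limma), which ranked 34th from the highest of the 11941 genes. The scale with 1 added to CPM understates low genes, and edgeR on the reads gave a log2 fold change of 2.27 (4.84-fold, adjusted p = 2.97e-05). Fos lies on chromosome 12, 85473890 to 85477273 (GRCm38, GENCODE M21, plus strand), is protein coding like all 8 members, and no annotated gene overlaps it.

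Fosl2, which encodes Fra-2 and lies on chromosome 5, 32135801 to 32157842, rose less. Its levels were 3.04, 3.02 and 3.52 CPM in cKO and 1.65, 1.67 and 2.49 CPM in WT, where replicate 3 was nearest to the cKO libraries. This is a log2 fold change of 0.53 (SE 0.15) with an adjusted p of 0.0153 by limma. This call was lost without cKO replicate 3 (adjusted p = 0.0729 by limma), without WT replicate 2 (adjusted p = 0.0587 by limma) and with DESeq2 (adjusted p = 0.0572), while the adjusted p ranged from 0.00421 to 0.0729 over the 16 alternatives that tested it.

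Fosl1, which encodes Fra-1 and lies on chromosome 19, 5447547 to 5455946, was the exception in direction. Its levels of 0.649, 1.19 and 1.10 CPM in cKO overlapped those of 0.867, 1.31 and 1.40 CPM in WT. The log2 fold change was -0.15 (95% interval -0.52 to 0.22, adjusted p = 0.521 by limma) from 10 to 31 reads a library, and the interval holds changes in both directions. Its value is uncertain for another reason: 52.6% of the 50-base words of its transcripts lie in exons that Ccdc85b uses on the opposite strand, and the library kit does not mark strand. Ccdc85b had a mean of 8.90 ± 0.578 CPM in cKO against 7.04 ± 0.617 CPM in WT (SD, n = 3 each; adjusted p = 0.0525 by limma).

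Fosb, an inducible member that also gives the truncated ΔFosB by splicing, lies on chromosome 7, 19302696 to 19310051, and was near the limit of detection. It had 2, 12 and 9 reads in cKO and 0, 1 and 1 in WT, and the values per gene do not separate its splice forms. Summed over each group this is 0.337 CPM in cKO and 0.0607 CPM in WT, a ratio of 5.55 with an exact interval of 1.37 to 48.5 for counting error. Every cKO library was above every WT library, but cKO replicate 1 (0.0998 CPM) exceeded WT replicate 3 (0.0998 CPM) only in the fifth decimal. An exact two-sided permutation test gave p = 0.1, the smallest that 3 against 3 libraries allow. With no filter on low values the log2 fold change was 0.32 (adjusted p = 0.0753 by limma).

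Junb, the inducible Jun protein that can also restrain Jun activity (chromosome 8, 84974484 to 84978718), had the largest log2 fold change of its family. Its levels were 5.94, 6.68 and 7.15 CPM in cKO and 1.65, 2.19 and 3.19 CPM in WT. The cKO libraries lay close together, with a coefficient of variation of 9.29%, and the WT libraries spread more widely, at 33.4% from 19 to 32 reads. For Junb limma gave a log2 fold change of 1.21 (SE 0.16, 95% interval 0.85 to 1.56) and an adjusted p of 0.000129. A share of 5.76% of its words overlaps Prdx2 on the other strand, which was far more abundant with 283 ± 19.5 CPM in cKO against 274 ± 19.6 CPM in WT (SD, n = 3 each; adjusted p = 0.667 by limma).

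Jun, the main transactivating subunit (chromosome 4, 95049034 to 95052222), and Jund, its steadier relative (chromosome 8, 70698949 to 70700616), both single-exon genes, were the abundant members and rose by similar amounts. Jun was at 46.2, 51.6 and 53.3 CPM in cKO and at 34.8, 38.3 and 34.7 CPM in WT (log2 fold change 0.47, SE 0.084, adjusted p = 0.000873 by limma). Jund was at 51.9, 59.5 and 56.4 CPM in cKO and at 43.4, 40.7 and 40.8 CPM in WT (log2 fold change 0.42, SE 0.080, adjusted p = 0.00148 by limma). For both genes the lowest cKO library was about 1.2 times the highest WT library (1.21 for Jun and 1.20 for Jund), a narrow gap measured from 348 to 1585 reads a library. Of the words of Jund, 48.3% also belong to Gm11175 on the other strand, which was listed at 0 in all 6 libraries, and 5.83% of those of Jun belong to the antisense gene Junos, at 0.514 CPM in cKO and 0.768 CPM in WT.

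Atf3, a stress-induced bZIP factor that often acts as a repressor (chromosome 1, 191170296 to 191218039), was at 2.65, 1.98 and 3.31 CPM in cKO and at 0.780, 0.614 and 0.998 CPM in WT. The WT values rest on 9, 7 and 10 reads and the cKO values on 53, 40 and 93. The log2 fold change of CPM + 1 was 1.01 (SE 0.17, 95% interval 0.65 to 1.37, adjusted p = 0.000565 by limma). For a gene this low the added 1 weighs heavily, and edgeR on the reads gave 1.73 (3.32-fold, adjusted p = 0.000787).

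**Figure D2:**
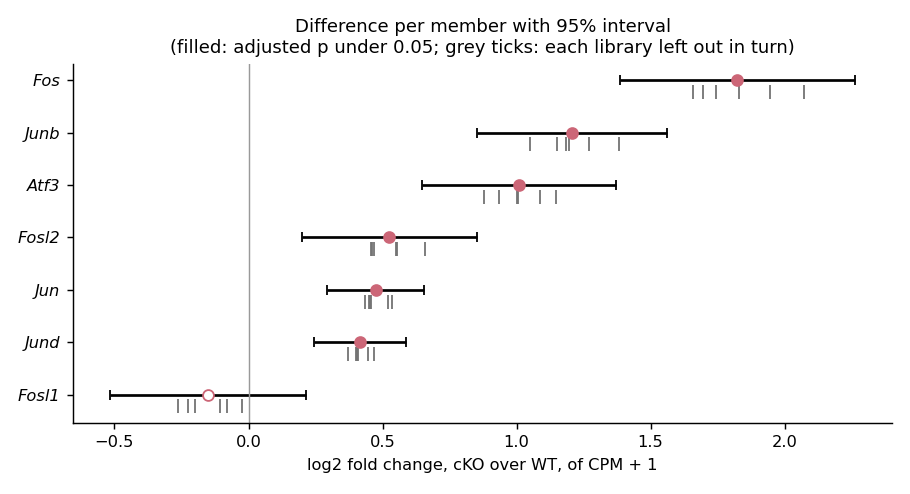
Log2 fold change of CPM + 1, cKO over WT, for the 7 tested AP-1 genes, with the limma 95% interval (black), a filled point where the adjusted p is under 0.05, and grey ticks for the value with each library left out in turn. Fos, Junb and Atf3 lie at 1.01 or above, Fosl2, Jun and Jund between 0.42 and 0.53, and the interval of Fosl1 includes 0.

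Levels per gene length, as RPKM (CPM per kilobase of gene), allow the members to be set beside each other. For Jund the length in the deposited files, 2878 bases, is longer than the GENCODE locus given above, and how reads shared with overlapping genes were assigned for Jund and Fosl1 is not given in the labels, so their places in the order and their shares are uncertain. In WT the order of mean levels was Jund (14.5 ± 0.526), Jun (11.3 ± 0.645), Junb (1.27 ± 0.426), Fos (0.704 ± 0.363), Fosl1 (0.699 ± 0.167), Atf3 (0.402 ± 0.0971), Fosl2 (0.331 ± 0.0826) and Fosb (0.0167 ± 0.0145; SD, n = 3 each). Jund exceeded Jun in every WT library, and both were far above the rest, while the ranges of Junb and Fos, of Fos and Fosl1, and of Atf3 and Fosl2 overlapped. In cKO the order was Jund (19.4 ± 1.33), Jun (15.8 ± 1.17), Junb (3.58 ± 0.333), Fos (3.49 ± 0.685), Atf3 (1.33 ± 0.336), Fosl1 (0.574 ± 0.170), Fosl2 (0.546 ± 0.0486) and Fosb (0.0901 ± 0.0659; SD, n = 3 each). There the ranges of Junb and Fos overlapped, as did those of Fosl1 and Fosl2, whereas Atf3 stood above both of the latter in every cKO library. Against all genes tested with a length, the mean RPKM of Fos lay at the 11.6th percentile in WT and the 39.5th in cKO, and that of Jund at the 76.7th and 82.5th.

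Summed over the 8 genes, the AP-1 transcripts came to 40.8, 46.3 and 47.4 RPKM in cKO and to 28.5, 29.8 and 29.1 RPKM in WT. Jun and Jund together made up 79.6%, 79.7% and 76.6% of that sum in cKO and 91.2%, 87.6% and 86.1% in WT. The Fos family held 9.23%, 10.3% and 11.7% in cKO and 4.32%, 7.36% and 6.26% in WT, with no overlap between groups. For each 100 RPKM of Jun there were 19.6, 21.1 and 25.2 RPKM of Fos in cKO and 4.06, 9.31 and 5.07 in WT. The transcripts of the Jun family thus outnumbered those of the Fos family in all 6 libraries, and the proportion of Fos was higher in every cKO library. These shares describe RNA and not protein, and no test was made of them.

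**Figure D3:**
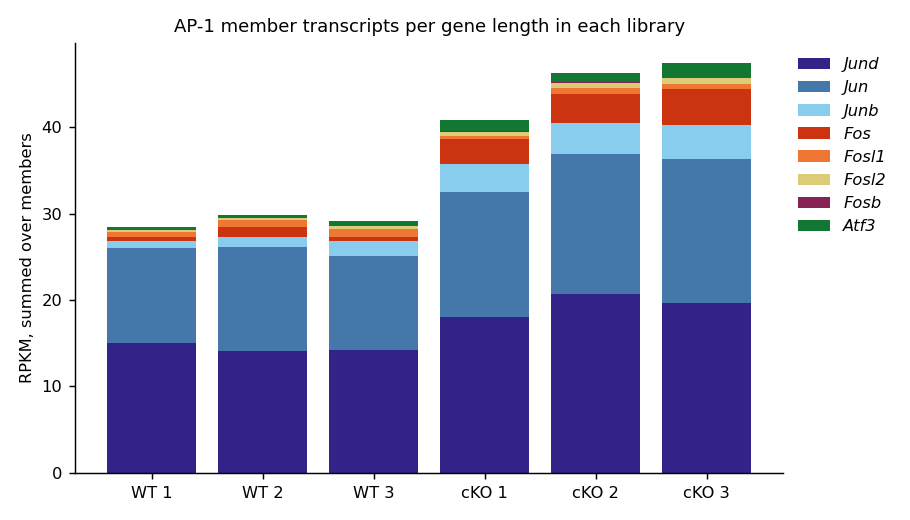
Stacked RPKM of the 8 AP-1 genes in each library. Jund and Jun fill most of every bar, the cKO bars reach 40.8 to 47.4 RPKM against 28.5 to 29.8 RPKM in WT, and the segments of Junb, Fos and Atf3 are wider in cKO.

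Of 6 genes of serum response factor (SRF) and its cofactors, which act on the Fos promoter, 2 were called higher and 0 lower. The shares for every gene tested were 20.9% and 15.9%. Their median log2 fold change was 0.14 for the 6 genes against 0.03 for every gene tested. Elk3, an ETS factor that joins SRF on the Fos promoter, rose from 12.2 ± 1.85 to 19.5 ± 0.468 CPM (log2 fold change 0.64), and its relative Elk4 rose by 0.41. Whether Elk3 and Elk4 raised or lowered Fos transcription in these lenses was not tested. Srf itself had 1.95 ± 0.618 CPM in cKO against 2.50 ± 0.441 CPM in WT (adjusted p = 0.265 by limma), and the cofactor genes Mkl1 (-0.20) and Mkl2 (0.23) were not called. The count higher fell to 1 with DESeq2, with thinned reads, among genes averaging 5 CPM or more, and without cKO replicate 2 or 3 or WT replicate 3.

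Of 14 MAP kinase pathway genes, 3 were called higher and 3 lower, close to the shares over all tested genes (20.9% higher and 15.9% lower), with a median log2 fold change of 0.01. The genes called are given as a description of the list. Those called lower were Map2k2, a kinase that activates ERK (168 ± 6.58 CPM in WT and 126 ± 1.31 CPM in cKO, log2 fold change -0.41), Mapk7, which encodes ERK5 (-0.52), and Mapk14, which encodes p38α (-0.45). Map2k4, which activates JNK (the Jun kinases) and p38, rose by 0.25, and Map3k1 (0.30) and the JNK scaffold gene Mapk8ip1 (0.27) were called higher too. The Jun kinase genes Mapk8 (0.25), Mapk9 (0.02) and Mapk10 (0.11) were not called. The count lower was 3 in all 17 alternatives, whereas the count higher was 0 without cKO replicate 3 or WT replicate 2 and 1 without cKO replicate 2 or WT replicate 1 and with no filter on low values.

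Genes that limit AP-1 do so by dephosphorylating MAP kinases, hastening decay of AU-rich messengers or marking Jun for degradation. Of 12 tested, 8 were higher and 0 lower, around a median of 0.37 (log2). The shares over all tested genes were 20.9% higher and 15.9% lower. Zfp36l1 rose by 1.02 on the log2 scale, to 2.27 ± 0.252 CPM in cKO against 0.615 ± 0.182 CPM in WT (adjusted p = 0.000269 by limma), and it too passed the filter through cKO libraries alone. Zfp36, which encodes the decay factor tristetraprolin, rose from 7.46 ± 0.788 to 12.7 ± 0.983 CPM (log2 fold change 0.69). The MAP kinase phosphatase genes Dusp6 and Dusp1 rose by 0.39 and 0.37, Dusp1 from 44.4 ± 3.49 to 57.5 ± 0.957 CPM. The others called were Dusp8 (0.67), Dusp16 (0.55), Zfp36l2 (0.38) and Rfwd2 (0.35), a ubiquitin ligase gene that acts on Jun. The ligase genes Fbxw7 (-0.21) and Itch (0.17), and Dusp4 (-0.01) and Dusp10 (0.21), were not called. The count stayed at 7 or 8 in all 17 alternatives.

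Other bZIP factors, most of them possible dimer partners, had 5 of 13 tested higher and 1 lower, around a median of 0.14 (log2). Among all tested genes 20.9% were higher and 15.9% lower. Maf, a regulator of crystallin genes, rose by 0.50, to 1457 ± 20.1 CPM in cKO against 1030 ± 50.2 CPM in WT (adjusted p = 0.000134 by limma). Maff (0.58), Creb1 (0.33) and Atf4 (0.26) rose as well, and Nfe2l2, which encodes the oxidative stress factor NRF2, fell by 0.37. The dimer partner genes Atf2 (0.14), Jdp2 (-0.02) and Batf3 (0.10) were not called. The count lower was 2 with TMM or RLE scaling, edgeR, DESeq2, limma-voom or the replicate block, and without cKO replicate 2.

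Textbook target genes of AP-1 were mostly low in these lenses. Of 24 listed, 11 were tested, with 3 higher, 3 lower and a log2 median of 0.05, where 20.9% of all tested genes were higher and 15.9% lower. The matrix metalloproteinase genes Mmp3, Mmp10, Mmp12 and Mmp13 had 0 reads in all 6 libraries, and Plau and Plaur, of the plasminogen activator system, were under 0.5 CPM on average in both groups. Hbegf, which encodes an EGF-like ligand, rose by 0.77, to 5.34 ± 0.521 CPM in cKO against 2.77 ± 0.758 CPM in WT (adjusted p = 0.00200 by limma), Tgfb1 rose by 0.63 and Cd44 by 0.57. Ccnd1, which encodes cyclin D1, fell from 213 ± 21.4 to 156 ± 28.9 CPM (log2 fold change -0.46), the DNA methyltransferase gene Dnmt1 fell by 0.52, and Ptgs2 fell by 0.61. Ptgs2 passed the filter through the WT libraries alone, so it could be tested only because of its higher level there.

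**Figure D4:**
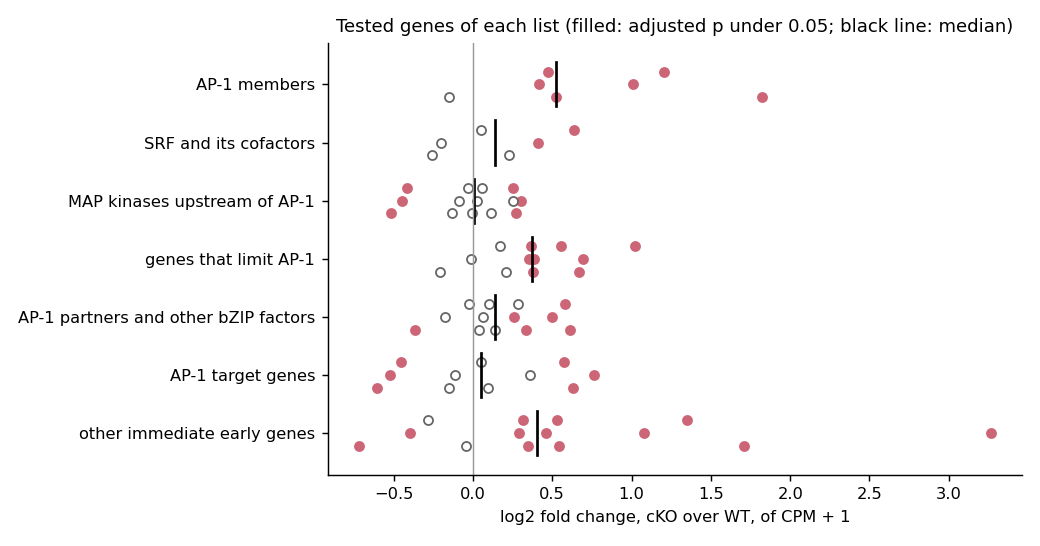
Log2 fold change of CPM + 1, cKO over WT, of every tested gene in the AP-1 members and 6 related gene lists; filled points have an adjusted p under 0.05 and black lines are medians. The AP-1 members (median 0.53), the genes that limit AP-1 (0.37) and the other immediate early genes (0.40) lie mostly right of 0, while MAP kinases and AP-1 targets spread to both sides.

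Among 14 other immediate early genes tested, 10 were higher and 2 lower, with a median log2 fold change of 0.40. For comparison, 20.9% of all tested genes were higher and 15.9% lower. The 4 with the smallest adjusted p were Klf4 (1.71), Egr1 (3.27), Cyr61 (1.35) and Ier2 (1.08), and the calls in the other direction were those of Myc (-0.72) and Ctgf (-0.39). The count higher was 6 among genes averaging 5 CPM or more. It was 7 with DESeq2, with thinned reads, and without cKO replicate 1 or 3 or WT replicate 2. Without cKO replicate 2 or WT replicate 3 it was 8, and in the other alternatives 9 to 11. The count lower was 1 without WT replicate 1.

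Profiles over the 6 libraries were compared by the root mean square difference of log2(CPM + 1), each gene centred on its own mean, among 9531 genes averaging 5 CPM or more. Nearest to Fos were Anxa2, which encodes a membrane-binding annexin (0.20), the transcription factor gene Nfia (0.23), the receptor gene Erbb4 (0.24), Ahnak (0.24) and Glipr2 (0.25). Anxa2 had 92.3 ± 15.4 CPM in cKO against 23.7 ± 3.08 CPM in WT (SD, n = 3 each), a ratio of 3.89 against 4.95 for Fos. Nearest to Jun were Tmed3 (0.031), Zfp2 (0.035), Erbb2ip (0.036), Zbtb33 (0.038) and Rbms1 (0.039), all with ratios of 1.35 to 1.43. These distances are descriptions over 6 libraries that fall into 2 groups, and any gene with a similar difference between the groups scores well.

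Summed markers of endothelium, macrophages and pericytes were higher in every cKO library than in every WT library. The sums of the other lists of cells around the lens overlapped between the groups. In bulk RNA, more cells of a type and more RNA per cell cannot be told apart. The counts below stand beside shares of 20.9% higher and 15.9% lower over all tested genes. Of 12 endothelial markers 10 were called higher and 0 lower. Their summed level was 218 to 263 CPM in cKO and 129 to 161 CPM in WT, a ratio of 1.65. Of 8 macrophage markers tested 7 were higher and 0 lower, with sums of 25.7 to 35.6 CPM against 10.4 to 14.1 CPM over the 12 listed, a ratio of 2.51. Cd68, C1qa and C1qb, and Prrx1 of the periocular mesenchyme list, met the filter with their cKO libraries, while only some of their WT libraries reached 1 CPM. Their presence among tested genes thus depends on their higher level in cKO. Pericyte markers had 4 of 6 higher and 1 lower, with a ratio of 1.39. Their summed difference rested largely on Rgs5, at 87.3 ± 6.93 CPM in cKO against 41.4 ± 2.84 CPM in WT. Pdgfrb, Cspg4 and Abcc9 were called higher too, whereas Notch3 was lower, at 25.6 ± 5.70 CPM in cKO against 42.7 ± 10.7 CPM in WT. Erythroid markers had 2 of 4 higher and 1 lower, with sums of 94.4 to 170 CPM and 93.1 to 110 CPM. Periocular mesenchyme markers had 3 of 5 higher (Foxc1, Prrx1 and Col1a2) and 1 lower (Pdgfra). Their sum, dominated by Pdgfra, was 194 to 225 CPM in cKO and 207 to 251 CPM in WT. Its overlap thus reflects Pdgfra, at 173 ± 13.3 CPM in cKO against 211 ± 22.1 CPM in WT. Foxc1 had 10.7 ± 0.968 CPM in cKO against 5.46 ± 0.277 CPM in WT, and Col1a2 13.7 ± 1.61 CPM against 5.87 ± 1.42 CPM. Of 3 retina and pigment epithelium markers tested 0 were called by limma. The defining markers Cdh5, Pecam1 and Csf1r were detected in every library, Foxc2 was at 0 in all 6, and the macrophage markers Emr1 and Ptprc were under 1 CPM on average in both groups. The part of these cells in the AP-1 difference was not tested.

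**Figure D5:**
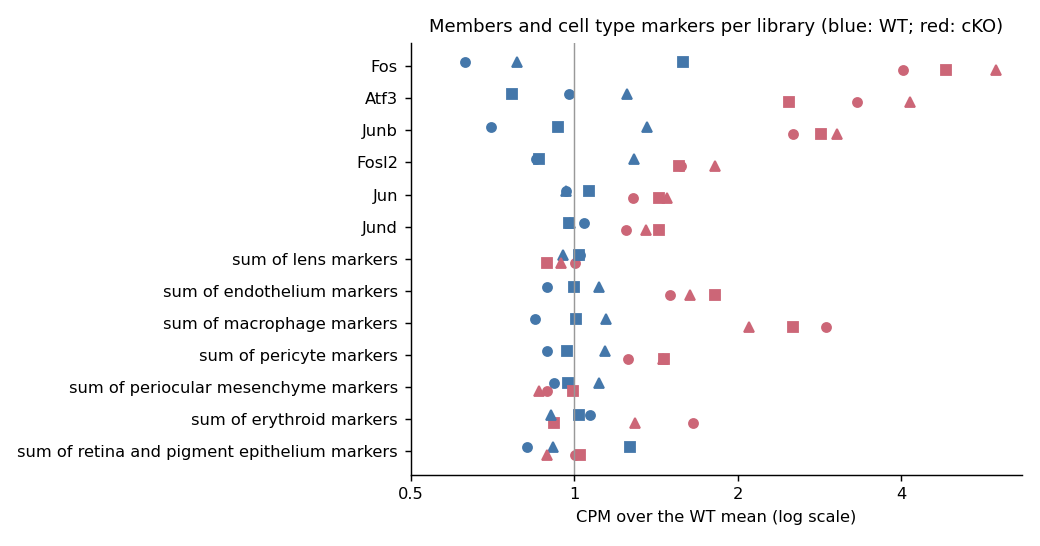
CPM of 6 AP-1 genes and summed CPM of each marker list, per library, over the WT mean (log axis). The macrophage and endothelial sums of all cKO libraries lie right of the WT libraries, as do the AP-1 genes, and the lens sums of both groups lie near 1.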

How the data were processed

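The authors deposited CPM and RPKM values for 6 lens libraries, per the file headers. CPM are reads scaled to the library total over the listed features, and RPKM are the same per kilobase of gene length. The submitters' processing notes name edgeR and GRCm38; aligner, counter and annotation: not given in the sources used here. Per the labels' protocols, poly(A) RNA was made into libraries with a kit that does not mark strand and read as 50-base single reads. Dividing each CPM by what 1 read is worth gave whole numbers (tolerance 0.02 reads) for all values, and these were taken as reads. For 27 features, symbols turned into dates were restored by identifier.

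The test was limma-trend 3.58.1 (R 4.3.3) on log2(CPM + 1) with robust moderation, group as the only term, genes reaching 1 CPM in 3 or more libraries, and Benjamini-Hochberg adjustment over all genes tested. It was tested on simulated counts. Alternatives were TMM and RLE scaling, a pseudocount of 0.1, other filters, the replicate number as a block, edgeR 4.0.16, DESeq2 1.42.0 and limma-voom on recovered reads, thinned reads, correction for GC content and length, and leaving out each library. The members and gene lists were chosen with earlier results of these data known. Genes named are the 8 members, up to 4 tested genes of every list by smallest adjusted p, and the 5 nearest profiles to Fos and Jun; further list members were picked with their values in view. The values of 1 listed gene are not reported here. Promoter windows and motifs are from RefSeq (GRCm38.p6), and loci and overlaps from GENCODE M21 (GRCm38).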

Additional observations from a re-analysis of the deposited data

How the results depend on the processing

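Fos, Jun, Junb, Jund and Atf3 kept direction and call in every alternative that tested them, with log2 fold changes of 1.66 to 2.36, 0.43 to 0.57, 1.05 to 1.51, 0.37 to 0.47 and 0.88 to 1.73. Fosl1 stayed uncalled, at -0.32 to -0.02, and Fosl2 ranged from 0.46 to 0.72, losing its call as stated above. The count of members called higher was 6 in most settings, 5 with DESeq2, 5 to 6 with each library left out, and 2 among genes averaging 5 CPM or more, since only Jun and Jund then entered the test. No member was called lower in any setting. The labels give both groups the same replicate numbers. Same-numbered deviations correlated at 0.33, -0.03 and 0.15, and the 0.33 of replicate 1 was the highest of all pairs. By contrast, cKO replicate 2 was closest to WT replicate 3 (0.21). With 3 libraries per group these correlations cannot decide whether the numbers pair the samples. With the replicate block 6 members were higher, and 2916 genes higher and 2249 lower overall. Over all genes, leaving out each library gave 1819 to 2403 higher and 1334 to 1934 lower. On the recovered reads (100% of values whole) edgeR called 2388 higher and 2388 lower. Depth limits Fosb, Fosl1 and the WT values of Atf3 most, since they rest on 0 to 15 reads a library in WT. The WT values of Fos are limited too, at 12, 30 and 13 reads in replicates 1, 2 and 3.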
